A study of Mus musculus with 2 samples.

Results

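The 8 small leucine-rich proteoglycan (SLRP) genes *Dcn*, *Bgn*, *Lum*, *Fmod*, *Ogn*, *Prelp*, *Aspn* and *Omd* were followed in cultured vascular smooth muscle cells (VSMCs) by single-cell RNA sequencing. They were chosen by gene symbol, as 8 of the 31053 genes counted, and all 8 passed the filter on low counts in each of the 5 comparisons. The data were 2 libraries, biological replicates 1 and 2, of primary VSMCs from the aorta of wild type mice after 5 days of culture. The labels do not say whether a replicate was 1 animal or a pool. The paper's general protocol used several aortae for each preparation on average, with no number for these 2 libraries. The age of the mice is not given for these cultures, and there was 1 condition. All comparisons are therefore between classes of cells within these cultures, and p-values measure only the spread between the 2 libraries. Where the library is a block in the fit, they measure only how the class difference varies between the 2 libraries.

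SLRPs are secreted proteins of the extracellular matrix with a core of leucine-rich repeats, which bind collagen and set how collagen fibrils grow and pack. Class I holds decorin (*Dcn*), biglycan (*Bgn*) and asporin (*Aspn*), of which decorin and biglycan carry chondroitin or dermatan sulfate chains. Class II holds lumican (*Lum*), fibromodulin (*Fmod*), prolargin (*Prelp*) and osteomodulin (*Omd*), several of which carry keratan sulfate, and class III holds osteoglycin (*Ogn*). In the vessel wall, decorin is known as a product of the adventitia and biglycan as a product of smooth muscle, and decorin and biglycan can hold back or release TGF-beta.

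The 8 genes lie at 4 loci in GENCODE M21 (GRCm38). *Aspn* (chr13:49544443-49567565), *Omd* (chr13:49582462-49592822) and *Ogn* (chr13:49608046-49624501) follow each other on the plus strand, with 14.9 kb and 15.2 kb between them, and they lie within the antisense gene *Cenpp*. *Dcn* (chr10:97479609-97518143) and *Lum* (chr10:97565128-97572703) are 47.0 kb apart on the plus strand. *Prelp* (chr1:133910304-133921414, minus strand) and *Fmod* (chr1:134037254-134048277, plus strand) are 116 kb apart, with 2 other genes between them, and 2.3 kb beyond *Prelp* lies *Optc*, which encodes the SLRP opticin. *Bgn* (chrX:73483602-73495933) stands alone. No member overlaps another, so that no UMI can belong to 2 of them by position.

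The 250 bases before the RefSeq start (GRCm38.p6) were available for 6 of the 8 genes, all but *Dcn* and *Lum*. The 3 neighbours on chromosome 13, whose levels went together across classes, are shown with *Bgn*, whose level hardly varied with the Myh11 count. All 4 are printed 5′ to 3′ on the plus strand, and capitals mark matches on either strand to the TATA motif TATAAA, to the CCAAT motif, to the SP1-type motif GGGCGG, to the AP-1 motif TGANTCA, to the TEAD motif CATTCC or to the CArG box.
Aspn, chr13:49544193-49544442: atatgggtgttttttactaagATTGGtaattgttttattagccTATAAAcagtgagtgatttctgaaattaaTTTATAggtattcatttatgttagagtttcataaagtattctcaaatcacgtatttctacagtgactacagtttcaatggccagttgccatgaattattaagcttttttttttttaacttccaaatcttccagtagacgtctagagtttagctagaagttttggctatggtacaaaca
Omd, chr13:49582212-49582461: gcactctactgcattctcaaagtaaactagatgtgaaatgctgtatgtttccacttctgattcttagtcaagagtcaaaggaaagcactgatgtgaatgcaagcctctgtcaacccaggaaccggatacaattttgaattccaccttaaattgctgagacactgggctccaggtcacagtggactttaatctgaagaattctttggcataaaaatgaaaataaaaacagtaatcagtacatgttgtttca
Ogn, chr13:49607765-49608014: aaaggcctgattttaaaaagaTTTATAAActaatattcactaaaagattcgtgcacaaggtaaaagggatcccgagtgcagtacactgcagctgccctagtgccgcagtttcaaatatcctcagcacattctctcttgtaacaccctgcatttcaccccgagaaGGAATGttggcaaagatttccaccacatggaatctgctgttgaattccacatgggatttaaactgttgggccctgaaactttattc
Bgn, chrX:73483351-73483600: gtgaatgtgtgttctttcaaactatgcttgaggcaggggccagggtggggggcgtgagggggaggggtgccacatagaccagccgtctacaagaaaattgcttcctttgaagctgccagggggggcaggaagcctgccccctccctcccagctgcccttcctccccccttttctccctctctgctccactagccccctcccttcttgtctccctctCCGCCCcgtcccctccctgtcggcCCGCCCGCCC
GC content was 30.0% before *Aspn*, 38.4% before *Omd*, 42.0% before *Ogn* and 64.4% before *Bgn*, against a median of 52.4% over 32851 such windows. The window of *Bgn* held GGGCGG on the opposite strand at bases -34 to -29, -10 to -5 and -6 to -1 before the start, the last 2 overlapping. A share of 32.7% of all windows held this motif. *Aspn* and *Ogn* each held TATAAA once on each strand, overlapping at bases -229 to -222 in *Ogn* and apart in *Aspn* (-207 to -202 and -178 to -173), beside 12.4% of all windows. *Aspn* also held CCAAT (33.8% of windows) and *Ogn* CATTCC (12.6%). The CArG box, bound by serum response factor and found in 1.47% of windows, and TGANTCA (6.75%) matched in none of the 6 windows, and *Omd* and *Fmod* had no match to any of the 6 motifs.

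After removal of barcodes under 300 genes, under 3000 UMIs or with 20% or more mitochondrial UMIs, 4866 and 6824 cells remained in replicates 1 and 2, with a median of 22234.5 and 16310 UMIs. In all, 9 cell barcodes occurred in both libraries. Classes were set by UMI counts per cell, Myh11 being the smooth muscle myosin of contractile cells, Pdgfra a receptor found on fibroblasts and modulated VSMCs, and Sox9 a cartilage factor. Myh11 of 5 or more UMIs was found in 473 and 879 cells, and Myh11 of at most 1 in 3954 and 5362 cells. At least 1 Pdgfra UMI was found in 3468 and 3893 cells and at least 2 Sox9 UMIs in 799 and 1859 cells. Endothelial cells (ECs), with at least 2 UMIs in 2 of *Pecam1*, *Cdh5*, *Cldn5* and *Gja4*, numbered 102 and 141 and were taken out of the other classes. The other classes overlap, since 87.8% and 92.3% of the Pdgfra cells were also Myh11-low.

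Contractile and endothelial markers not used by the cuts went with the class names. The 8 other contractile markers summed to 24314 and 24549 CPM (the UMIs of a gene scaled to 1000000 UMIs of the class) in Myh11-high cells, against 6725 and 3653 CPM in Myh11-low cells. Between these classes, edgeR without the library block called 0 of these 8 markers, beside 0.524% of all genes called lower in Myh11-low cells. With the block it called all 8 lower, beside 6.93%. The 9 other endothelial markers summed to 3114 and 3215 CPM in ECs and to between 49.7 and 88.3 CPM in the other 4 classes. Chondrocyte markers (7 genes) summed to 99.7 and 22.0 CPM in Myh11-high and 49.4 and 55.7 CPM in Myh11-low cells, and Schwann cell markers (4 genes) to 11.1 and 4.89 CPM and 21.8 and 31.3 CPM. The 5 macrophage markers reached at most 23.4 CPM in these 5 classes. Adventitial fibroblast markers, 8 genes, summed to 713 and 433 CPM in Myh11-high cells and to 1023 and 839 CPM in Myh11-low cells. Their sum was highest in ECs (1236 and 1379 CPM), where *Ly6a* stood at 694 and 753 CPM and *Cd34* at 265 and 405 CPM. The list was mixed there. Against all other cells, edgeR called *Cd34*, *Ly6a* and *Pi16* higher in ECs and *Dpt*, *Gsn* and *Clec3b* lower, beside 7.82% and 6.26% of all genes. The median log2 fold change of the list was -0.79. The part of these fibroblast markers in the results below was not tested. RNA outside cells was read from barcodes with 1 to 100 UMIs and made up an estimated 4.99% and 5.61% of the UMIs of cells other than ECs. The estimate used the genes that defined ECs, among others, so that the cut itself can lower it.

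Each of the 8 SLRP genes was at a higher level in Myh11-low than in Myh11-high cells in both libraries, by between 1.03-fold (*Bgn*) and 7.39-fold (*Dcn*), and 4 of them passed the test when the library was a block. The 8 genes summed to 2186 and 1757 CPM in Myh11-high cells and to 2961 and 3143 CPM in Myh11-low cells. *Bgn* made up 71.5% and 67.2% of the summed SLRP UMIs of Myh11-high cells, and 54.6% and 45.5% in Myh11-low cells. *Ogn* made up 12.4% and 22.6%, and 23.3% and 24.4%. In edgeR's quasi-likelihood test on the 4 sums, 0 of the 8 genes passed an adjusted p of 0.05, beside 0.028% of 14306 genes called higher, while 5 had an unadjusted p under 0.05 (*Aspn*, *Dcn*, *Lum*, *Omd*, *Ogn*), beside 15.5% of all genes. DESeq2 called these same 5 higher, beside 2.28% of 14410 genes. Both sums of a library come from 1 culture. With the library as a block, 4 of the 8 genes were called higher (*Aspn*, *Ogn*, *Omd*, *Prelp*), beside 3.94% of all genes. The blocked fit leaves 1 residual degree of freedom and leans on the spread shared across genes. In counts simulated once per comparison, more of its calls were false than the threshold allows in each comparison but that of ECs. Draws were not repeated, so that the spread of this share is not known.

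**Figure D1:**
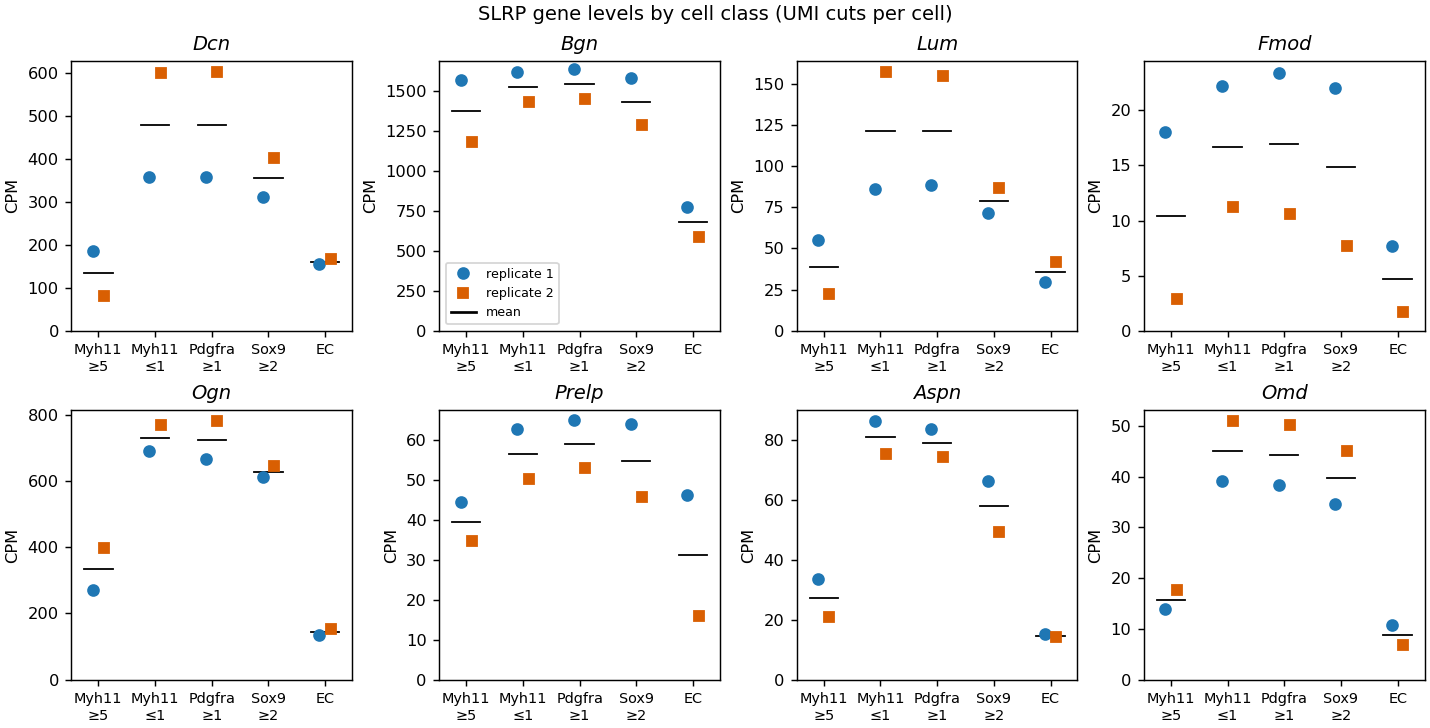
Level of each SLRP gene in CPM (vertical axis from 0) in 5 cell classes, with a point for each library and a line at their mean. *Aspn*, *Omd* and *Ogn* are low in both libraries in Myh11-high cells and ECs, *Bgn* is nearly level outside ECs, and the libraries are far apart for *Dcn*, *Lum* and *Fmod*.

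Among class I genes, *Dcn* was at 186 and 81.1 CPM in Myh11-high cells and at 358 and 599 CPM in Myh11-low cells. The ranges of the classes did not overlap, but the ratio was 1.93-fold in replicate 1 and 7.39-fold in replicate 2, and the log2 fold change, 1.77 ± 0.50 (SE), did not pass the test (adjusted p = 0.218, edgeR, and 0.0979 with the block). *Aspn*, whose protein inhibits TGF-beta and binds calcium, was at 33.7 and 20.8 CPM against 86.5 and 75.6 CPM. This was 2.57-fold and 3.63-fold higher in Myh11-low cells, with a log2 fold change of 1.51 ± 0.28 and an adjusted p of 0.13 without and 0.0154 with the block in edgeR. *Bgn* was at 1564 and 1181 CPM against 1616 and 1430 CPM. Here the classes overlapped, the ratios were 1.03-fold and 1.21-fold, and neither fit called a difference (log2 fold change 0.08 ± 0.20, adjusted p = 0.895 and 0.504 in edgeR).

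The class II genes differed in their ratios. *Lum* was at 54.8 and 22.1 CPM in Myh11-high cells and at 86.1 and 157 CPM in Myh11-low cells, with no overlap. Like *Dcn*, its neighbour on the chromosome, its ratio was smaller in replicate 1 (1.57-fold) than in replicate 2 (7.12-fold), and it was not called (log2 fold change 1.59 ± 0.54, edgeR adjusted p = 0.288, and 0.143 with the block). *Omd*, first found in bone matrix, was at 13.9 and 17.7 CPM against 39.1 and 50.9 CPM, 2.81-fold and 2.88-fold higher. Its log2 fold change of 1.44 ± 0.21 had an adjusted p of 0.0942 in edgeR and 0.00775 with the block. *Prelp*, which binds heparan sulfate and collagen, was at 44.4 and 34.6 CPM against 62.8 and 50.4 CPM. The difference was small in both libraries (1.41-fold and 1.45-fold), was called only with the block (0.45 ± 0.08 log2, edgeR adjusted p = 0.0432, against 0.391), and turned to -0.27 when each cell was thinned to 3000 UMIs before the cuts. The same thinning, without the block, gave log2 fold changes of 2.68 for *Dcn*, 3.22 for *Lum* and 2.89 for *Aspn*. These were then called in edgeR, beside 78 of 11420 genes called higher, whereas *Omd*, at 1.22, was not. It left 43 and 77 Myh11-high cells. *Fmod* was low and uneven between libraries, at 18.0 and 2.88 CPM in Myh11-high cells and 22.2 and 11.2 CPM in Myh11-low cells. These ranges overlapped, and the log2 fold change of 0.62 ± 0.90 was smaller than its error.

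In class III, *Ogn* was at 272 and 397 CPM in Myh11-high cells and at 690 and 768 CPM in Myh11-low cells. This was 2.54-fold and 1.93-fold, without overlap, and the log2 fold change of 1.06 ± 0.22 had an adjusted p of 0.146 in edgeR and 0.0187 with the block. *Aspn*, *Omd* and *Ogn*, which lie side by side, thus had ratios between 1.93 and 3.63 in both libraries, whereas *Dcn* and *Lum*, which form another pair, had far larger ratios in replicate 2.

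Finer steps of Myh11 counts showed where the levels parted. In replicate 1, *Aspn* was at 86.8, 84.1, 80.7, 44.4 and 12.9 CPM in cells with 0, 1, 2-4, 5-19 and at least 20 Myh11 UMIs. In replicate 2 it was at 77.3, 56.0, 29.3, 20.6 and 22.4 CPM. Most of the decrease thus lay above 4 Myh11 UMIs in replicate 1, and below 5 in replicate 2. *Dcn* ran from 355 CPM at 0 UMIs to 103 CPM at 20 or more in replicate 1, and from 601 to 73.5 CPM in replicate 2. *Lum* was highest at 1 Myh11 UMI in both libraries (111 and 177 CPM) and ended at 22.8 and 10.9 CPM. *Omd* went from 39.5 to 7.01 CPM and from 52.4 to 12.9 CPM. *Ogn* was lower at each step in replicate 1, from 701 to 188 CPM. In replicate 2 it was at 784, 580, 391, 390 and 440 CPM, so that the last 3 steps were nearly level. *Bgn* stayed between 1499 and 1717 CPM in replicate 1 and between 1165 and 1435 CPM in replicate 2. The smallest steps held 143 and 120 cells.

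**Figure D2:**
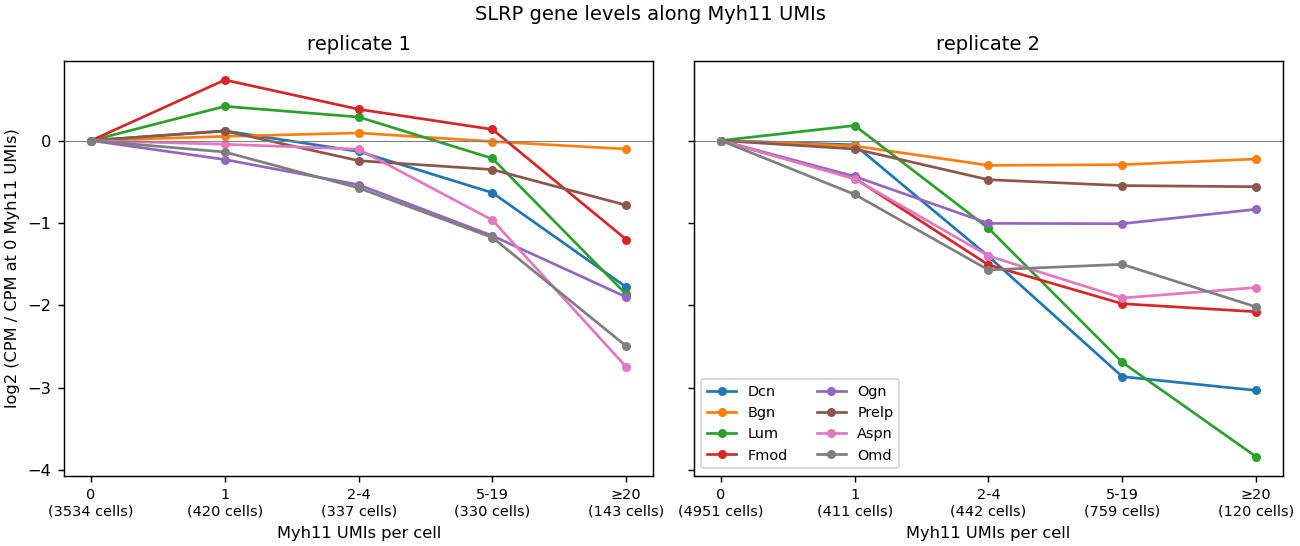
Level of each SLRP gene at 5 steps of Myh11 UMIs per cell (horizontal axis, with the number of cells), as log2 of its CPM over its CPM in cells without a Myh11 UMI, for replicates 1 and 2. *Bgn* stays near 0, while *Aspn*, *Omd*, *Dcn* and *Lum* end far below it in both libraries.

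The share of cells with at least 1 UMI followed the levels. *Dcn* was found in 58.1% of Myh11-high cells of replicate 1 (exact binomial 95% interval 53.5 to 62.6%) and in 28.3% of replicate 2 (25.4 to 31.4%), against 86.0% and 87.8% of Myh11-low cells. *Ogn* was found in 81.0% and 91.1% against 95.8% and 93.6%, and *Bgn* in 100% of Myh11-high cells and 99.0% and 98.7% of Myh11-low cells. These intervals cover counting error only. Since Myh11-high cells were deeper (median 25667 and 21018 UMIs, against 21979 and 15639.5), the shares were also computed for 3000 UMIs drawn from each cell. At this depth *Ogn* was found in 42.9% and 56.4% of Myh11-high and in 73.9% and 74.9% of Myh11-low cells. *Aspn* was found in 8.31% and 5.19% against 18.5% and 17.3%, and *Omd* in 3.73% and 4.68% against 9.92% and 12.9%. *Dcn* was found in 27.0% and 11.6% against 48.5% and 65.2%, whereas *Bgn* was still found in 97.6% and 94.5% against 97.1% and 96.1%. A Myh11-low cell had a UMI in a median of 5 of the 8 genes in both libraries, and a Myh11-high cell in 4 and 3. All 8 were found in 172 and 116 Myh11-low cells (4.35% and 2.16%).

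Relative to RNA outside cells, the levels in Myh11-high cells of *Omd* were 0.47 and 0.49 and of *Aspn* 0.68 and 0.55. In Myh11-low cells they were 1.31 and 1.41, and 1.73 and 2.00. *Bgn* was close to 1 in both classes (1.14 and 0.99, and 1.18 and 1.20), so that the free RNA held biglycan at about the level of the cells. When free RNA was subtracted, the members called in this comparison were 0, as before.

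Within Myh11-low cells, *Prelp*, *Ogn*, *Omd* and *Dcn* were higher in cells with a Pdgfra UMI when the library was a block, by at most 1.44-fold in either library. The comparison was between 3045 and 3593 cells with at least 1 Pdgfra UMI and 909 and 1769 cells with none. In edgeR 0 of the 8 genes were called, beside 0% of 14051 genes called higher, 0 had an unadjusted p under 0.05, beside 1.59% of all genes, and DESeq2 called 0. The 4 genes called higher with the block stood beside 4.51% of all genes. Pdgfra-positive cells were deeper (median 23700 and 17027 UMIs, against 16243 and 12896) and more often cycling (42.9% and 33.9%, against 29.4% and 27.0%), and the part of both was not tested. Macrophage markers summed to 36.6 and 10.8 CPM in Pdgfra-negative and 8.57 and 6.09 CPM in Pdgfra-positive cells.

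*Prelp* showed the largest ratio, at 45.9 and 41.1 CPM without and 66.0 and 53.8 CPM with a Pdgfra UMI (1.44-fold and 1.31-fold, blocked log2 fold change 0.43 ± 0.05, edgeR adjusted p = 2.80e-05). Its level was highest, in both libraries, at 78.3 and 61.8 CPM in cells with at least 5 Pdgfra UMIs. *Ogn* was at 613 and 641 CPM against 704 and 815 CPM, and at 769 and 932 CPM with at least 5 Pdgfra UMIs. *Omd* was at 30.3 and 45.6 against 40.8 and 52.8 CPM, and *Dcn* at 322 and 508 against 365 and 633 CPM. The other 4 genes were not called in either fit. *Bgn* (1608 and 1364 against 1618 and 1455 CPM), *Lum* (82.8 and 147 against 86.8 and 161 CPM) and *Aspn* (81.0 and 68.4 against 87.5 and 78.3 CPM) were at most 1.14-fold apart in both libraries. *Fmod* was 1.11-fold higher in replicate 1 and 0.932-fold, thus lower, in replicate 2. When each cell was thinned to 3000 UMIs before the cuts, log2 fold changes without the block were 0.46 (*Lum*), 0.49 (*Dcn*), 0.21 (*Fmod*) and 0.12 (*Omd*). Without thinning they were 0.08, 0.24, 0.05 and 0.28, and the other genes moved less. After thinning edgeR called 0 of the 8 genes, beside 1 of 11669 genes called higher.

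When the library was a block, *Lum*, *Aspn*, *Dcn* and *Ogn* were lower in Myh11-low cells with Sox9 than in those without. Among Myh11-low cells, 713 and 1554 cells had at least 2 Sox9 UMIs and 2641 and 2948 had none. In edgeR 0 of the 8 genes were called, beside 0% of 13791 genes called lower, 1 (*Aspn*) had an unadjusted p under 0.05, beside 2.07% of all genes, and DESeq2 called 0. The 4 genes called lower with the block stood beside 2.99% of all genes. *Lum* was at 70.9 and 98.1 CPM in Sox9-positive cells and at 92.7 and 206 CPM in cells without Sox9, with a blocked log2 fold change of -0.75 ± 0.13 and an edgeR adjusted p of 0.0238. *Aspn* was at 71.0 and 56.7 against 92.6 and 95.4 CPM (-0.58 ± 0.08 log2, edgeR adjusted p = 0.0114 with the block). *Dcn* was at 321 and 465 against 376 and 717 CPM, and *Ogn* at 646 and 714 against 704 and 835 CPM. For all 4 the ratio was further from 1 in replicate 2. The other 4 were not called, and *Omd* (37.4 and 51.2 against 40.7 and 51.4 CPM) and *Prelp* (65.9 and 45.2 against 61.8 and 54.6 CPM) changed sign under other settings. Sox9-positive cells were deeper too (25873 and 19209.5 UMIs in the median, against 20379 and 14114) and had 51.9 and 88.0 CPM of chondrocyte markers against 45.8 and 36.1 CPM, and the part of either was not tested. Thinning each cell to 3000 UMIs before the cuts left 65 and 347 Sox9-positive cells. The log2 fold changes without the block were then -0.77 (*Lum*), -0.20 (*Dcn*), -0.08 (*Aspn*) and -0.02 (*Ogn*). Without thinning they were -0.83, -0.48, -0.57 and -0.19. Whether the Pdgfra difference depended on Sox9 was tested as an interaction over 14 sums of 7 non-overlapping classes, and edgeR called 0 of 13442 genes. This fit had no library block, and the interaction was not tested with one. Unadjusted p in edgeR was at least 0.384 for each of the 8 SLRP genes, and DESeq2 was not run on the interaction.

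**Figure D3:**
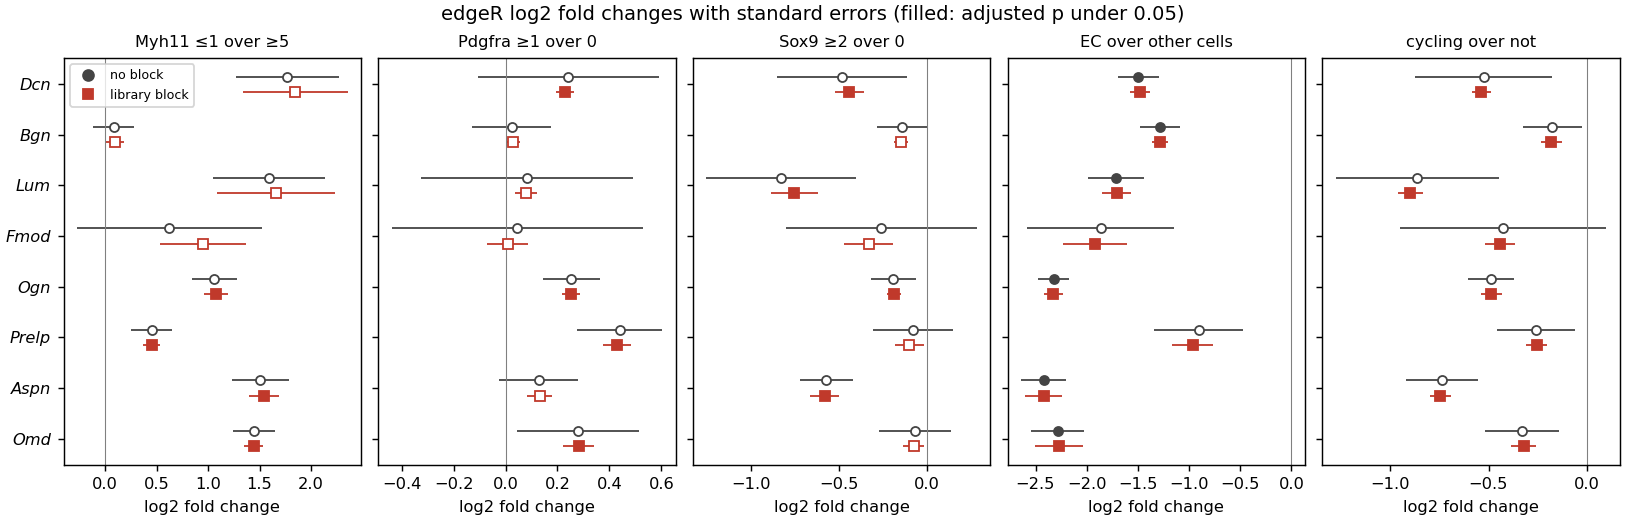
Log2 fold changes (horizontal axis) with standard errors of the 8 SLRP genes in 5 comparisons by edgeR, without (circles) and with (squares) the library as a block, and filled where the adjusted p was under 0.05. Only the endothelial comparison has filled circles. The block narrows the errors, except those of *Dcn* and *Lum* by Myh11, and fills 4, 4, 4, 8 and 8 of the squares from left to right.

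In ECs, 6 of the 8 genes were lower than in all other cells (*Aspn*, *Ogn*, *Omd*, *Lum*, *Dcn*, *Bgn*), beside 6.26% of 14428 genes called lower in edgeR. All 8 were called with the block, beside 18.6%. The 3 neighbours on chromosome 13 had the fitted log2 fold changes furthest from 0. *Aspn* was at 15.3 and 14.3 CPM in ECs and 80.1 and 63.6 CPM elsewhere, 5.24-fold and 4.45-fold lower (fitted log2 fold change -2.42 ± 0.22, edgeR adjusted p = 0.00196). *Ogn* was at 135 and 152 against 627 and 682 CPM, 4.64-fold and 4.47-fold lower (-2.32 ± 0.15 log2, edgeR adjusted p = 0.00054). *Omd* was at 10.7 and 6.85 against 35.3 and 43.2 CPM, 3.30-fold and 6.31-fold lower. None of these groups overlapped. *Lum* was at 29.6 and 41.7 against 83.7 and 130 CPM, *Dcn* at 154 and 166 against 336 and 490 CPM, and *Bgn* at 773 and 585 against 1618 and 1372 CPM, for *Bgn* a difference of 2.09-fold and 2.35-fold. *Fmod* (7.64 and 1.71 against 22.1 and 9.39 CPM, log2 fold change -1.86 ± 0.72) and *Prelp* (46.4 and 16.0 against 60.0 and 46.9 CPM, -0.91 ± 0.43) were not called without the block (edgeR adjusted p = 0.147 and 0.224). Of the other cells, 83.0% and 80.2% were Myh11-low. Not every gene was lower in ECs than in Myh11-high cells, a contrast that was not tested. Myh11-high cells had 186 and 81.1 CPM of *Dcn*, 54.8 and 22.1 CPM of *Lum* and 44.4 and 34.6 CPM of *Prelp*. ECs thus had more *Dcn* and *Lum* in replicate 2 and slightly more *Prelp* in replicate 1.

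In both libraries each of the 8 genes was at a higher level in the ECs with a Pdgfra UMI than in the ECs without one. There were 17 and 11 ECs with a Pdgfra UMI, and these had a median of 38489 and 31339 UMIs, against 12899 and 9954.5 in the other 85 and 130. In the ECs with a Pdgfra UMI, *Dcn* was at 322 and 506 CPM and *Bgn* at 1331 and 1269 CPM, or 90.1% and 84.5%, and 82.3% and 88.7%, of their levels in Myh11-low cells. In the ECs without one, *Dcn* was at 69.1 and 89.0 CPM, *Ogn* at 17.7 and 65.9 CPM and *Aspn* at 2.30 and 7.01 CPM. For *Ogn* this was 2.56% and 8.57% of the level in Myh11-low cells. *Fmod* was found with 0 and 1 UMIs in these cells, where a count of 0 allows up to 3 UMIs. Whether cells with markers of both kinds were doublets was not tested, as no doublet caller was run.

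When ECs without a Pdgfra UMI were compared with all other cells, an alternative added after these values were seen, edgeR called all 8 genes lower, beside 11.5% of 14336 genes. Each gene was higher in the ECs left out, so that this choice itself lowered the EC levels. The other cells were not cut by Pdgfra, and the calls are no further support. The log2 fold changes were -4.12 for *Ogn*, -4.11 for *Omd*, -4.09 for *Aspn*, -3.00 for *Lum*, -2.55 for *Dcn*, -1.88 for *Bgn* and -1.68 for *Prelp*. The last had an adjusted p of 0.0489. *Fmod* had 0 and 1 UMIs in these ECs, so that its fitted value (adjusted p = 0.0167, edgeR) depends on the prior count and no fold is given. In these cells *Ogn*, *Aspn* and *Omd* stood at 0.0479, 0.0462 and 0.0514 of their level in free RNA in replicate 1, and at 0.156, 0.185 and 0.0972 in replicate 2. The share of free RNA, 4.99% in replicate 1 and 5.61% in replicate 2, was estimated for cells other than ECs and not for these cells. *Bgn* stood at 0.358 and 0.359, and was found in 87.1% and 76.2% of the cells.

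**Figure D4:**
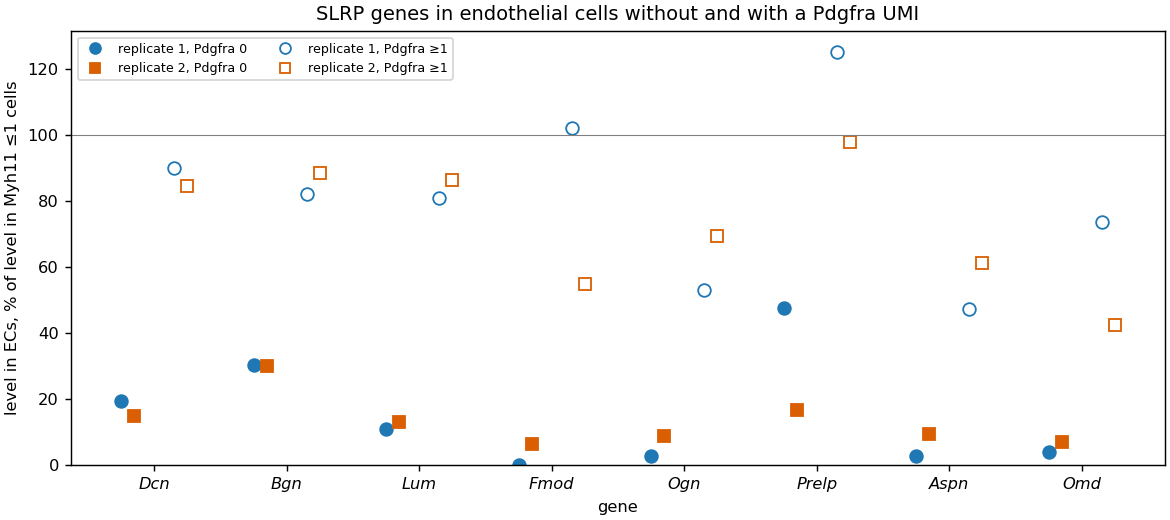
Level of each SLRP gene in ECs without (filled) and with (open) a Pdgfra UMI, as a percentage of its level in Myh11-low cells of the same library (vertical axis, grey line at 100). Filled points lie between 0 and 47.7%, and each gene's open points lie above its filled points.

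Cycling Myh11-low cells, with at least 5 UMIs over 8 cell cycle genes (1574 and 1696 cells), were compared with cells that had at most 1 (1612 and 2726 cells). Each of the 8 SLRP genes was at a lower level in CPM in cycling cells in both libraries. In edgeR 0 of the 8 were called, beside 0.0944% of 13764 genes called lower, 2 (*Aspn*, *Ogn*) had an unadjusted p under 0.05, beside 16.4% of all genes, and DESeq2 called *Aspn* lower, beside 0.566% of 13594 genes. With the block all 8 were called lower, beside 22.2% of all genes. *Lum* was at 58.7 and 119 CPM in cycling and 122 and 192 CPM in other cells (blocked log2 fold change -0.90 ± 0.06). *Aspn* was at 68.6 and 53.9 against 108 and 92.9 CPM (-0.74 ± 0.05) and *Dcn* at 294 and 507 against 442 and 684 CPM (-0.54 ± 0.05). *Bgn* again differed least, at 1568 and 1323 against 1684 and 1527 CPM (-0.18 ± 0.05). *Ogn*, *Fmod*, *Omd* and *Prelp* had blocked log2 fold changes of -0.49, -0.44, -0.32 and -0.26. The median depth was 26456 and 18991.5 UMIs in cycling and 18455 and 13871 in other cells. In replicate 1, where the classes were of similar size, *Bgn* had 70355 UMIs in cycling and 53719 in other cells. *Fmod*, *Ogn*, *Omd* and *Prelp* also had more UMIs in cycling cells there. *Lum* had fewer (2636 against 3906), as did *Aspn* and *Dcn*. In replicate 2, *Dcn* had 17863 UMIs in the 1696 cycling and 28361 in the 2726 other cells, about as many per cell. *Lum* (4184 against 7962) and *Aspn* (1899 against 3853) had fewer per cycling cell there too. Since levels are shares of all UMIs, less SLRP RNA and more other RNA per cell cannot be told apart by them.

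Within Myh11-low cells of similar depth (10 groups by UMI count), 27 of the 28 pairs of SLRP genes were found together more often in both libraries than their own frequencies give, neighbours on a chromosome or not. The share of such pairs among other genes was not computed, so that this count cannot be called particular to SLRP genes. The part of depth that still differs within a group was not tested. *Fmod* and *Prelp* were found together in 18.2% and 8.02% of cells, 1.22 and 1.35 times the share for independent detection. *Aspn* and *Omd* were found together in 29.2% and 24.2% of cells, 1.20 and 1.23 times that share. These were the 2 highest ratios of the 28 pairs when averaged over the libraries. Both pairs are neighbours. The ratio was lower for the neighbours *Dcn* with *Lum* (1.08 and 1.10) and *Ogn* with *Omd* (1.02 and 1.03) than for *Lum* with *Fmod* (1.11 and 1.13), which are on different chromosomes. *Lum* with *Prelp*, also on different chromosomes, had 1.13 and 1.10. A gene found in most cells, such as *Bgn*, *Ogn* or *Dcn*, cannot move far from 1 by this measure. *Dcn* and *Lum* were found together in 46.0% and 59.6% of cells, where *Lum* was found in 47.8% and 61.0%. The ratios of pairs with such a gene therefore cannot be ranked against those of rarer genes. Across the 14 sums, Pearson's r of log2 levels was 0.95 for *Ogn* with *Omd*, 0.94 for *Dcn* with *Lum*, 0.90 for *Ogn* with *Aspn* and 0.80 for *Fmod* with *Prelp*. Pairs on different chromosomes reached similar values, with 0.86 for *Bgn* with *Aspn* and 0.82 for *Bgn* with *Fmod*, *Dcn* with *Aspn* and *Dcn* with *Omd*. It was lowest for *Lum* with *Prelp* (0.33). The sums share 2 libraries and include ECs, so that r is a description of these classes.

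**Figure D5:**
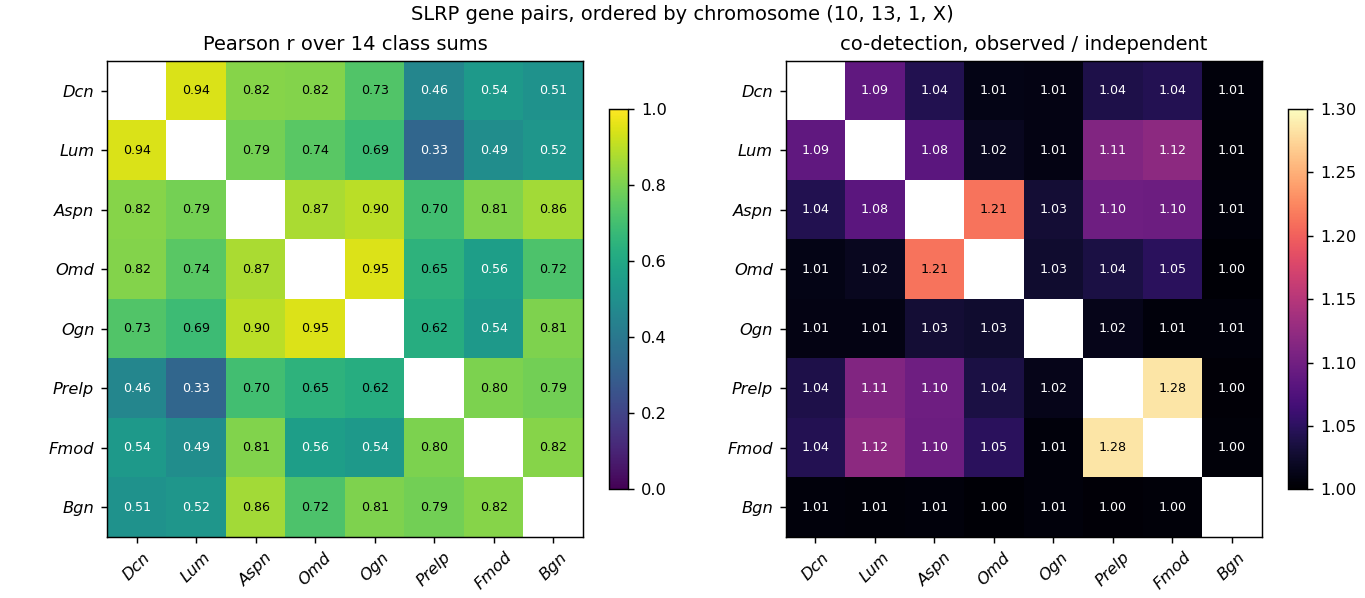
Pairs of SLRP genes ordered by chromosome. Left, Pearson's r of log2(CPM + 1) over 14 class sums, and right, the share of Myh11-low cells with both genes over the share for independent detection, as the mean of 2 libraries; the brightest cells are *Ogn* with *Omd* and *Dcn* with *Lum* on the left, and *Fmod* with *Prelp* and *Aspn* with *Omd* on the right.

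Of 5820 genes over 20 CPM, those with the levels most alike over the 14 sums differed from member to member. For *Bgn* they were *Col1a2*, *Oat* and *Ikbip* (r between 0.987 and 0.991), *Col1a2* being a chain of type I collagen. For *Aspn* they were *Epha3*, *Fcgrt* and *Cdh11* (0.976 to 0.983), and for *Ogn* they were *Acadsb*, *Dse* and *Rab34* (0.975 to 0.977). *Dse* encodes the epimerase that turns chondroitin into dermatan sulfate. *Dcn* was most like *Impact* and *Asap1* (0.964 and 0.960), and *Lum* like *Lix1l*, *Impact* and *Grem1* (0.904 to 0.910), the last a BMP antagonist. *Omd* was most like *Manea* and *Cab39l* (0.971 and 0.968), and *Prelp* like *Sel1l*, *Clptm1l* and *Anapc2* (0.938 to 0.951). *Fmod* was below 20 CPM and was not ranked.

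The other genes of SLRP biology were 61 genes in 5 lists. These were 11 other SLRPs, 22 chondroitin or dermatan sulfate enzymes, 8 keratan sulfate enzymes, 11 genes in a protease list and 9 receptors. The protease list held proteases that process or cut SLRPs and also *Pcolce*, which encodes an enhancer of such a protease. Between Myh11-low and Myh11-high cells, 1 of 53 tested was called in edgeR, lower, beside 0.524% of all genes called lower, with a median log2 fold change of 0.36, beside 0.02 over all genes and 1.25 over the 8 members. The 1 gene was *Optc*, next to *Prelp*, at 0.596 and 0.703 CPM in Myh11-low and 9.34 and 15.5 CPM in Myh11-high cells (log2 fold change -4.32 ± 0.34, edgeR adjusted p = 0.0371). Its direction was thus opposite to that of all 8 members. With the block 6 genes were higher and 5 lower, beside 3.94% and 6.93% of all genes. The higher ones were *Dse*, *B4galt1* of keratan sulfate synthesis, the proteases *Tll1* and *Adamts5*, and the receptors *Met* and *Egfr*, and the lower ones *Optc*, the sulfotransferases *Chst3* and *Chst7*, and the receptors *Erbb4* and *Igf1r*. *Dse* was at 78.6 and 85.1 CPM in Myh11-low and 46.1 and 45.8 CPM in Myh11-high cells.

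In ECs, 4 of 51 tested genes of these lists were higher and 10 lower, beside 7.82% and 6.26% of all genes, with a median log2 fold change of -0.67, beside -0.08 over all genes and -1.79 over the 8 members. The genes called higher were about as frequent as among all genes. One sulfate enzyme of each kind was higher, *Chst11* (27.0 and 29.7 against 9.05 and 9.90 CPM) and *B4galt4* (18.3 and 25.1 against 6.61 and 6.18 CPM), with the receptors *Kdr* and *Met*. *Kdr* is also on the list of 9 endothelial markers, all of which were called higher in ECs. *Dse* (18.3 and 22.8 against 74.2 and 76.7 CPM) and *Chpf* were lower, as was the SLRP *Podn* (2.55 and 1.14 against 8.54 and 6.45 CPM). All 4 genes called from the protease list were lower. They were led by the enhancer *Pcolce* (75.4 and 37.7 against 268 and 228 CPM) and *Adamts5* (106 and 82.2 against 479 and 266 CPM), with *Ctsk* and *Mmp14*. The receptors *Lrp1*, *Cd44* and *Igf1r* were lower.

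In the other 3 comparisons edgeR called 0 of the listed genes without the block. Unadjusted p was under 0.05 for 1 of 52 (Pdgfra), 1 of 51 (Sox9) and 6 of 52 (cycling), beside 1.59%, 2.07% and 16.4% of all genes. DESeq2 called 0 in each. With the block, 6 were higher in Pdgfra-positive cells, the proteases *Mmp3*, *Adamts5*, *Ctsk* and *Bmp1* and the receptors *Lrp1* and *Egfr*, beside 4.51% of all genes. *Mmp3*, stromelysin 1, which can cut decorin, stood out at 11.6 and 57.0 CPM without and 30.0 and 115 CPM with a Pdgfra UMI (blocked log2 fold change 1.09 ± 0.07). With Sox9, 3 were higher (*Tll1*, *Met*, *Adamts5*) and 2 lower (*Ctsk*, *Mmp14*), beside 1.81% and 2.99% of all genes. In cycling cells 5 of 52 were higher and 19 lower with the block, beside 22% and 22.2% of all genes, and the lower ones included the SLRPs *Chadl*, *Ecm2* and *Podn* and the proteases *Mmp2* and *Ctsk*. *Mmp2* was at 38.7 and 79.0 CPM in cycling and 55.1 and 123 CPM in other cells.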

How the data were processed

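UMI counts of 2 droplet libraries (10x Genomics single cell 3′ v3) of cultured wild type aortic VSMCs were used. CellRanger was run by the authors, whose deposited matrices hold raw UMI counts for each gene in every barcode, empty droplets included. The submitters' processing notes name Cell Ranger 3.0.2 and mm10, whereas the matrix headers name 3.0.2 for replicate 1 and 3.1.0 for replicate 2. Coordinates are from GENCODE M21, which held 30934 of the 31053 gene identifiers, and promoters from RefSeq tables. Library totals were 127949633 and 132561822 UMIs.

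The paper's limits on cells were kept (300 genes, 3000 UMIs, 20% mitochondrial UMIs). UMIs were summed per library and class, and 2 against 2 sums were compared with edgeR 4.0.16 in R 4.3.3 (quasi-likelihood test, TMM, filterByExpr, Benjamini-Hochberg over all genes tested, threshold 0.05). Endothelial cells were left out of the other classes. The alternatives were a library block, RLE scaling, no filter on low counts, DESeq2 1.42.0, stricter cuts, cells thinned to 3000 UMIs, free RNA subtracted, the deepest 5% of cells left out, 7 non-overlapping classes in 1 fit, and each library alone. Numbers pair the sums, because sums of 1 library come from the same culture, and deviations from the class means correlated at 0.62, 0.80, 0.80, 0.29 and 0.72 in the 5 comparisons. The share of free RNA came from the UMIs, in all other cells, of 6 endothelial genes at least 500-fold higher in endothelial cells, a limit set after the values were seen. Among them were *Pecam1*, *Cdh5*, *Cldn5* and *Gja4*, which also defined the endothelial cells. Cells with more of their UMIs were thus taken out of the other cells beforehand, which can raise these folds and lower the share. No doublets were removed.

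The members, lists and classes were chosen with earlier results of these data known. All 8 members were named in every comparison, up to 2 genes per list and direction were given with values among those called, and the 3 most alike genes were named for members with a mean of at least 20 CPM, except that the third gene for *Dcn* and for *Omd* is not reported here. The fits were tested on simulated data with known changes, drawn once per fit and comparison, so that the shares found have no spread. There the fits without the block recovered few of the smaller changes, and false calls exceeded the threshold in all fits but the blocked one for endothelial cells. The counts simulated for the fits without the block had no library effect, whereas the real sums of a library were correlated. How often those fits make false calls on these data was therefore not measured.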

Additional observations from a re-analysis of the deposited data

How the results depend on the processing

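Sums of 1 library share a culture. With the library as a replicate block the members called were 4 in the Myh11, 4 in the Pdgfra, 4 in the Sox9 and 8 in the cycling comparison, against 0 in each without it, and the genes called in all were 1555 (against 79), 1226 (0), 663 (0) and 6081 (603), and 4721 (2031) for ECs. DESeq2 called 5, 0, 0 and 1 members in these 4 comparisons and 997, 11, 6 and 908 genes. In the Myh11 comparison, the single fit of 7 classes called 4 members and 1240 genes, thinning to 3000 UMIs 3 and 245, stricter cuts 1 and 514, and no filter on low counts 0 and 1. The last called 1 gene each for Pdgfra and Sox9, as thinning did, and the 7-class fit called 1 for Pdgfra. For ECs the 7-class fit called 3888 genes, 5 members among them, and lost *Lum* (-1.37, adjusted p 0.0532 in edgeR), and ECs without a Pdgfra UMI gave 3060 genes. The cause of these shifts was not tested.

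Over fits to both libraries, signs turned in 5 cases: *Prelp* by Myh11 (-0.27, thinned), *Omd* by Sox9 (0.30, thinned, and 0.0226 without the deepest 5% of cells), and *Prelp* by Sox9 (0.11 in the 7-class fit and 0.055, thinned). The summed SLRP level became 3384 CPM in Pdgfra and 2854 CPM in Sox9 cells after thinning, from 3063 and 2662. In ECs it became 941 CPM (stricter cuts), 930 CPM (without the deepest cells) and 555 CPM (thinned), from 1078. Thinning left 43 and 77 Myh11-high cells. With 1 library left a class has 1 sum, so those values have no test, and *Fmod* by Pdgfra (-0.10 without replicate 1) and *Prelp* by Sox9 (0.09 without replicate 2) turned sign too. *Dcn* and *Lum* by Myh11 rest most on replicate 2, at 2.88 and 2.80 without replicate 1 and 0.94 and 0.65 without replicate 2. Of 440 member values under alternatives, 377 kept their direction and side of the threshold or, with 1 library, moved by less than the SD between libraries. That SD is taken from the same 2 single-library values, so that this part of the rule is easily met. It was met by *Dcn* by Myh11 and by the sign turns of *Fmod* and *Prelp* with 1 library, and does not measure how firm a value is. Depth limits *Fmod*, with 241 and 56 UMIs in Myh11-high cells and 15 and 3 in ECs.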
